A study of Mus musculus with 98 samples.

Results

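The data compared here are the spleen arrays of the lipopolysaccharide (LPS) set whose titles carry the code x with those whose titles carry the code c. Of the 98 mouse arrays in the series, 12 belong to this set, 6 with code x and 6 with code c, and they were chosen by title alone. Each array holds 1 linear intensity for each of 22690 probe sets, from total RNA of spleen. All 12 arrays carry the same label, which says that the mice received an LPS infusion, and all 12 titles also carry the letter E and the mark v2. On the blood arrays of the series the letter E stands for infusion and A for sham, but no spleen label spells the letter out. What separates c from x is not stated in the labels, so "higher in x" below means only higher on the arrays of that code and does not mean treated against untreated. Strain, sex, age, LPS dose and the time of sampling are not given in the sources used here. The labels do not tell whether each array is a different animal, so the p-values measure the spread between these arrays, which may be technical. Replicate numbers below only name arrays within a code, in accession order.

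LPS is the outer membrane glycolipid of Gram-negative bacteria. CD14 hands it to the receptor TLR4 with its partner MD-2, which signals through MyD88 to NF-kB and MAP kinases and through TRIF to IRF3 and interferon beta. The first arm switches on cytokine, chemokine and feedback inhibitor genes, and the second arm, through secreted interferons and STAT proteins, switches on antiviral effectors and guanylate-binding GTPases. In the spleen the marginal zone and red pulp macrophages, monocytes and dendritic cells meet blood-borne LPS first, and red pulp macrophages also recycle iron from old red cells and export it through ferroportin, the product of Slc40a1.

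Markers of spleen cells were measured on all 12 arrays, without a comparison with another tissue. The B cell antigen Ms4a1, which encodes CD20, lay at 12.49 to 12.68 in c and 12.34 to 12.59 in x on the quantile-normalised log2(value + 16) scale used for all levels below, and Spic, the factor that red pulp macrophages need, at 7.77 to 8.40 in c and 8.34 to 8.93 in x. Of 19 measured markers of red pulp and marginal zone macrophages, Spic alone had a higher mean in x, and the list median difference was -0.19. The 12 pancreas markers averaged 6.66 to 6.82 in c and 6.70 to 6.87 in x. None of 6 measures of array quality passed an exact permutation test over all splits of the 12 arrays, two-sided, with a smallest adjusted p of 0.965. The log2 ratio of 3-prime to 5-prime beta-actin signal, a measure of RNA integrity, was 2.01 ± 0.14 (SD, n = 6) in c and 2.03 ± 0.118 (SD, n = 6) in x. The same ratio for GAPDH was 2.32 ± 0.239 (SD, n = 6) in c and 2.31 ± 0.261 (SD, n = 6) in x. The comparison tells how alike the codes were, not how intact the RNA was.

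A pair of c arrays stood apart from the other 4. Replicate 6 of c lay at -41.9 on the first principal component, which carried 30.2% of the variance, whereas the other 11 arrays lay between -6.07 and 19.5, and its median correlation with its own group was 0.974 against 0.988 to 0.991 for the rest of c. Replicate 2 of c lay toward the x arrays in part of the genes. Of the 334 genes that passed the test described next, it was nearer to the x mean than to the mean of the other c arrays for 83 (24.9%), against 5 to 23 genes for each of the other 11 arrays. These 83 included 5 of the 6 neutrophil markers and 4 of the 6 NF-kB genes that passed, but none of the 13 interferon effectors and none of the 9 GTPases. The cause was not tested. Values below are from all 12 arrays. Some counts, some of the largest differences and the calls lost among the described genes are also given without replicates 2 and 6 of c.

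Between the codes, 503 of 22626 probe sets passed a limma test at an adjusted p of 0.05 (2.22%), 366 of them higher in x (1.62%) and 137 lower (0.605%). At an unadjusted p of 0.05, 2193 probe sets passed. Counted as genes, each by its brightest probe set, 334 of 12393 passed (2.70%), of which 233 were higher (1.88%) and 101 lower (0.815%). The higher side reached farther: 56 genes were at least 2-fold higher and 5 at least 2-fold lower, and the median difference was 0.66 for the higher genes and -0.33 for the lower ones, against -0.02 over all genes. The x and c arrays did not overlap at all for 274 of the 334, and 328 of all genes (2.65%) were separated in this way. Without replicates 2 and 6 of c, 259 of the 334 passed, and 492 probe sets passed in all. The title numbers of the 12 arrays are consecutive. They were split here into 2 runs, each with 3 x and 3 c arrays, and no label marks this split. In these smaller sets 36 probe sets passed in the first run and 155 in the last, and of the 334 genes, which were chosen on all 12 arrays, 16 and 85 passed. Of 89 genes that passed and were chosen for description, 11 did not pass without replicates 2 and 6 of c (Rsad2, Usp18, Irf8, Mt2, Hspa1b, Dnajc3, Mcm4, Ccnd2, Ifit3, Mx1 and Oas2). Of the same 89, 69 passed whichever single array was left out. The other 20 include F13a1, Fn1, Slc12a2, Map3k8, Rsad2, Irf8, Mt2, Gadd45b, Fcer2a, Cd28, Spic, Clec4d, S100a9 and Ifit3. Among those named, Clec4d lost the call with 1 single array left out. The rest of them lost it with any of 7 (Slc12a2) to 11 (Cd28) single arrays left out. Dnajc3 and Mcm4 lost the call with any of 9 single arrays left out, Nfil3 with any of 5, S1pr4 and Hspa1b with any of 4 and Ccnd2 with any of 3.

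**Figure D1:**
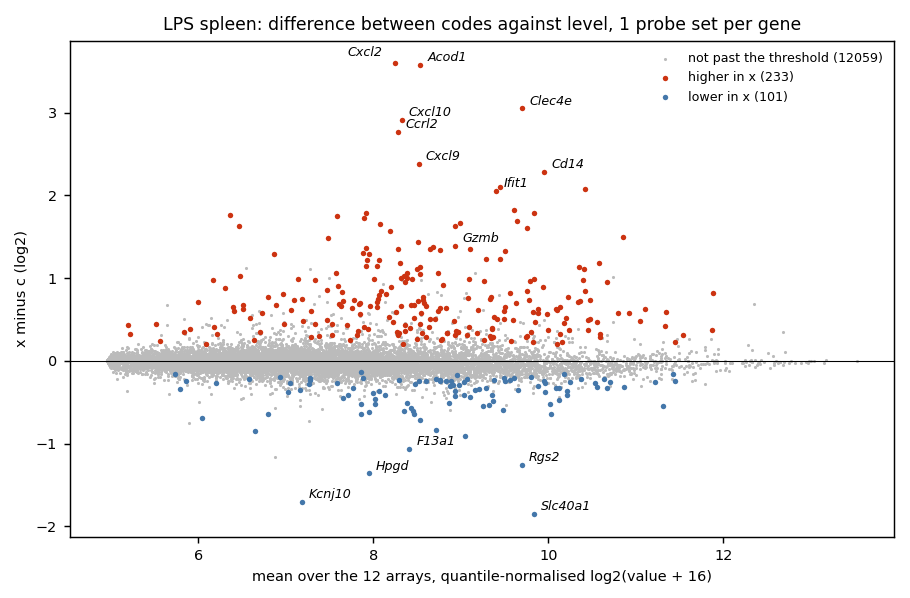
Difference between x and c (log2, vertical axis) against the mean level over the 12 arrays (log2, horizontal axis) for 12393 genes, 1 point each; red points were higher and blue points lower in x at an adjusted p of 0.05, and grey points did not pass. The 233 higher genes reach 3.60 (Cxcl2), and the 101 lower genes reach -1.85 (Slc40a1).

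Cxcl2, Cxcl10, Ifit1 and Socs3 were 4 of the genes higher in x, and their promoters are shown because each holds a match to a motif of a transcription factor of the pathways above. The sequences are the 250 bases before the annotated start in RefSeq (mouse build GRCm38.p6), given 5′ to 3′ on the gene's strand, with the matches in capitals. Cxcl2 lies on the plus strand at chr5:90903649-90903898, Cxcl10 on the minus strand at chr5:92348890-92349139, Ifit1 on the plus strand at chr19:34640639-34640888 and Socs3 on the minus strand at chr11:117969367-117969616.
Cxcl2: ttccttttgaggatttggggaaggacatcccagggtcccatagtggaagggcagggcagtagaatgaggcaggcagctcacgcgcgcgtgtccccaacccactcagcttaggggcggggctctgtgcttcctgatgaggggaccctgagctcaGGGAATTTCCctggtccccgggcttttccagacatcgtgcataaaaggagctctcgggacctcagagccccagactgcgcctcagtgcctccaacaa
Cxcl10: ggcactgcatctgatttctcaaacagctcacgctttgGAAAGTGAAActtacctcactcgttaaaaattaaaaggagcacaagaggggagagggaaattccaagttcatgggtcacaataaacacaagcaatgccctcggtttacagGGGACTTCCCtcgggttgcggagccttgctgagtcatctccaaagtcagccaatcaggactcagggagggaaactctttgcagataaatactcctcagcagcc
Ifit1: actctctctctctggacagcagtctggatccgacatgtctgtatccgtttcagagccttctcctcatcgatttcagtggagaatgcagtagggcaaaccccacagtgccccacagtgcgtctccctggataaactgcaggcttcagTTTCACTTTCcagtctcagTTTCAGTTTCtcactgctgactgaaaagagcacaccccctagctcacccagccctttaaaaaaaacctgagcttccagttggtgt
Socs3: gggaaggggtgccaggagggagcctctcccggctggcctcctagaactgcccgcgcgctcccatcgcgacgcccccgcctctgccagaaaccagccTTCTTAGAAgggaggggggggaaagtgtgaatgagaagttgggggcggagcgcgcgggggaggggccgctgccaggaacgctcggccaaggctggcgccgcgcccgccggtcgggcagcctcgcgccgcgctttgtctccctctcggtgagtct
The Cxcl2 capitals mark an NF-kB match (GGGA, any base, TT, any base, CC) 97 to 88 bases before the start, those of Cxcl10 an interferon regulatory factor match (GAAA, any 2 bases, GAAA) at 213 to 204 bases and an NF-kB match at 103 to 94 bases, those of Ifit1 a pair of interferon regulatory factor matches at 104 to 95 and 85 to 76 bases, and those of Socs3 a STAT match (TTC, any 3 bases, GAA) at 154 to 146 bases. Both strands were searched, and the motifs were counted apart where they overlap.

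Over the 9882 measured genes with a promoter sequence, 1.07% held the NF-kB letters, 2.79% the interferon regulatory factor letters and 6.05% the STAT letters. Among the 188 of these genes that were higher in x the shares were 4.26%, 10.6% and 11.7%, and among the 76 that were lower they were 0 of 76, 3.95% and 5.26%. These shares describe letters in a window and were not tested, and no match says only that the letters are not in these 250 bases.

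Cd14 and Tlr2 rose among the genes of LPS recognition, while Tlr4 did not pass. Of 20 measured genes of the LPS receptor and Toll-like receptor list, 4 were higher in x and none lower (background 1.88% higher and 0.815% lower), with a list median of 0.06. Cd14, the LPS co-receptor, stood at 8.42, 8.74 and 9.65 (lowest, median and highest) in c and 10.89, 11.06 and 11.28 in x. The groups did not overlap, although replicate 2 was the highest c array. Its difference was 2.28 ± 0.18 (SE, 4.87-fold; limma adjusted p = 0.00014), and 2.46 without replicates 2 and 6. Tlr2, the receptor of bacterial lipopeptides, ranged over 5.90 to 6.88 in c and 7.33 to 7.77 in x, without overlap, a difference of 1.29 ± 0.15 (SE, adjusted p = 0.000816). Myd88, the adaptor that most Toll-like receptors share, was higher by 0.65 ± 0.07 (SE, adjusted p = 0.000377), and Map3k8, the kinase TPL2 that links NF-kB to ERK, by 0.69 ± 0.15 (SE, adjusted p = 0.0407). Tlr4 itself lay at 6.11 to 6.75 in c and 6.13 to 6.65 in x and did not pass, with a difference of 0.01 ± 0.13 (SE). Neither did its partner Ly96, which encodes MD-2 (0.26 ± 0.12), nor Lbp, the LPS-binding protein (0.04 ± 0.05).

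The NF-kB genes that passed were all higher in x, and Bcl3, Nfkbie and Nfkbib, which encode IkB proteins, were among them. Of 14 measured genes of the list, 6 were higher and none lower, the list median was 0.41, and leaving out 1 array at a time gave 5 to 8. Bcl3, a nuclear IkB protein, stood at 7.77, 8.02 and 8.91 (lowest, median and highest) in c and 9.65, 9.74 and 9.86 in x. The 6 x arrays were close together and above all c arrays, of which replicate 2 was the highest. The difference was 1.63 ± 0.16 (SE, 3.09-fold, adjusted p = 0.000264). Relb, the subunit of the alternative pathway, was higher by 0.999 ± 0.18 (SE, adjusted p = 0.0123), Tnip1, a partner of the deubiquitinase A20, by 0.89 ± 0.10 (SE, adjusted p = 0.000639), and Nfkbie, which encodes IkB epsilon, by 0.66 ± 0.12 (SE, adjusted p = 0.0121). Nfkbia, which encodes IkB alpha, was at 0.34 ± 0.09 (SE, adjusted p = 0.089) by its brightest probe set, while its 4 probe sets ranged from 0.34 to 1.02 and 2 of them passed. Tnfaip3, which encodes A20, was at -0.08 ± 0.11 and did not pass. Nfkb2 was at 0.02 ± 0.08 by its brightest probe set and did not pass, while its second probe set, at 0.34, did.

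**Figure D2:**
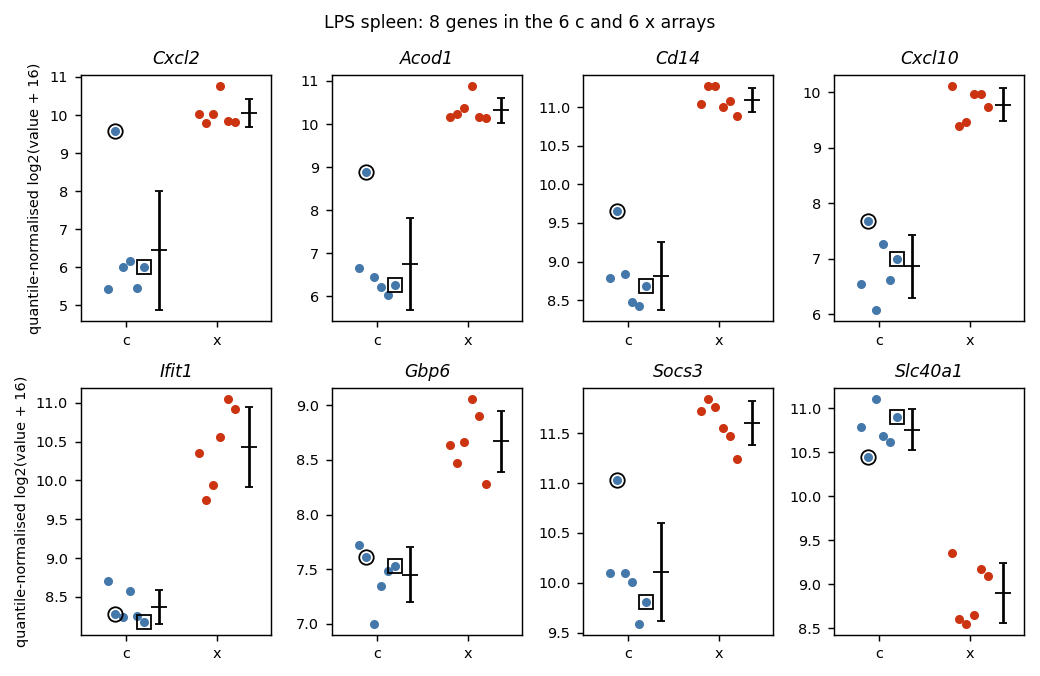
Level of 8 genes on each array (quantile-normalised log2(value + 16), vertical axes that do not start at 0) in the 6 c arrays (blue) and the 6 x arrays (red), with the mean and SD as a black bar; a ring marks replicate 2 and an open square replicate 6 of c. Cxcl2 replicate 2 of c (9.59) sits just under the x arrays (9.78 to 10.77), whereas for Ifit1 it sits among the other c arrays.

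The chemokine Cxcl2 had the largest difference of all genes that passed. Of 17 measured CXC chemokines and receptors, 3 were higher in x and none lower, and the list median was 0.00. Cxcl2, a neutrophil attractant that binds CXCR2, stood at 5.43, 6.01 and 9.59 (lowest, median and highest) in c and 9.78, 9.94 and 10.77 in x. Replicate 2 of c reached 9.59, and the other 5 c arrays reached at most 6.17. With all arrays the difference was 3.60 ± 0.62 (SE, 12.1-fold, adjusted p = 0.00908), and without replicates 2 and 6 it was 4.27 (adjusted p = 1.59e-05). The interferon-induced ligands of CXCR3 also rose. Cxcl10 stood at 6.07, 6.80 and 7.68 (lowest, median and highest) in c and 9.40, 9.86 and 10.12 in x, a difference of 2.92 ± 0.25 (SE, 7.54-fold, adjusted p = 0.000161). Cxcl9 stood at 6.95, 7.35 and 7.67 (lowest, median and highest) in c and 9.28, 9.71 and 10.02 in x, a difference of 2.38 ± 0.16 (SE, 5.21-fold, adjusted p = 8.46e-05). For both genes every x array was above every c array. Cxcl11, the other ligand of that receptor, lay at 7.22 to 7.85 in c and 7.34 to 7.68 in x and did not pass, and Cxcl1, which shares its receptor with Cxcl2, was at 0.12 ± 0.06.

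Of 18 measured CC chemokines and receptors, 1 was higher and none lower. This was Ccl4, which encodes the chemokine MIP-1 beta, at 7.16, 7.36 and 7.92 (lowest, median and highest) in c and 8.75, 8.86 and 9.31 in x, with a difference of 1.57 ± 0.14 (SE, adjusted p = 0.000218). Ccl3 (0.21 ± 0.07), Ccl2 (-0.03 ± 0.14) and Ccl5 (0.11 ± 0.12) did not pass. Ccrl2, a receptor-like protein that holds chemerin at the cell surface, ranged over 6.59 to 8.02 in c and 9.26 to 10.25 in x and rose by 2.77 ± 0.25 (SE, adjusted p = 0.000239).

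The count of cytokine genes that passed depended on replicate 2 of c, and over all genes 1.88% were higher and 0.815% lower. Of 24 measured genes of cytokines and the interleukin 1 system, 1 passed by its brightest probe set with all arrays, Il6. Its difference of 0.24 ± 0.04 (SE, adjusted p = 0.00778) lay in the dimmest part of the scale, 5.38 to 5.53 in c and 5.60 to 5.79 in x. Tnf was at 0.21 ± 0.09 (SE, adjusted p = 0.41), Il10 at 0.15 ± 0.07, Il12b at 0.07 ± 0.08 and Ifng at 0.32 ± 0.09, and none of these passed. Il1b stood at 9.001, 9.28 and 10.87 (lowest, median and highest) in c and 9.86, 10.16 and 10.44 in x, where replicate 2 of c at 10.87 was above every x array. Its difference was 0.58 ± 0.28 (SE, adjusted p = 0.567), and 0.84 without replicate 2 (adjusted p = 0.0109). Without replicate 2, 6 genes of the list passed, and without both replicates Il1a reached 0.62 (adjusted p = 0.00747). Il1rn, the antagonist of the interleukin 1 receptor, was at 0.12 ± 0.14 by its brightest probe set and did not pass. Its 3 probe sets ranged from 0.12 to 1.51, and 2 of them passed with all arrays.

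With all 12 arrays, no other list had as many members higher in x as the interferon-induced antiviral genes. Of 23 measured antiviral effectors, 13 were higher in x and none lower, with a list median of 0.59, and 10 to 13 passed when 1 array was left out. Without both replicates the median was 0.60 and 7 passed. That was fewer than the 9 neutrophil markers, 8 NF-kB genes, 8 GTPases and 8 apoptosis genes higher in that setting. Ifit1, which binds foreign RNA caps, stood at 8.18, 8.26 and 8.71 (lowest, median and highest) in c and 9.75, 10.46 and 11.05 in x. Its highest x arrays were replicates 5 and 6, and no x array overlapped c. The difference was 2.06 ± 0.21 (SE, 4.16-fold, adjusted p = 0.000377). Ifit2, of the same family, was higher by 1.06 ± 0.18 (SE, adjusted p = 0.00778), and Usp18, the protease that removes ISG15 and dampens the interferon receptor, by 0.99 ± 0.18 (SE, adjusted p = 0.0146). Rsad2, which encodes viperin, was higher by 1.13 ± 0.23 (SE, adjusted p = 0.0275), but its groups overlapped, its 3 probe sets ranged from 0.05 to 1.17, and it did not pass without replicates 2 and 6 (adjusted p = 0.11). Mx1 (0.97 ± 0.18), Ifit3 (0.77 ± 0.17) and Oas2 (0.31 ± 0.06) passed with all 12 arrays. Without replicates 2 and 6 these 3 did not pass (adjusted p = 0.0627, 0.144 and 0.0763), and neither did Usp18 (adjusted p = 0.0508).

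Guanylate-binding proteins and immunity-related GTPases, which coat and disrupt the vacuoles of intracellular microbes, were higher for 9 of 10 measured members, with a list median of 0.75 and 8 or 9 of them past the threshold when any 1 array was left out. Gbp6 stood at 7.003, 7.51 and 7.72 (lowest, median and highest) in c and 8.28, 8.65 and 9.06 in x, a difference of 1.22 ± 0.15 (SE, 2.33-fold, adjusted p = 0.000961). Iigp1 was higher by 1.18 ± 0.12 (SE, adjusted p = 0.000377) on both of its probe sets, Irgm1 by 0.99 ± 0.12 (SE, adjusted p = 0.00111) and Irgm2 by 0.96 ± 0.12 (SE, adjusted p = 0.00127). In none of these 4 genes did the groups overlap.

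**Figure D3:**
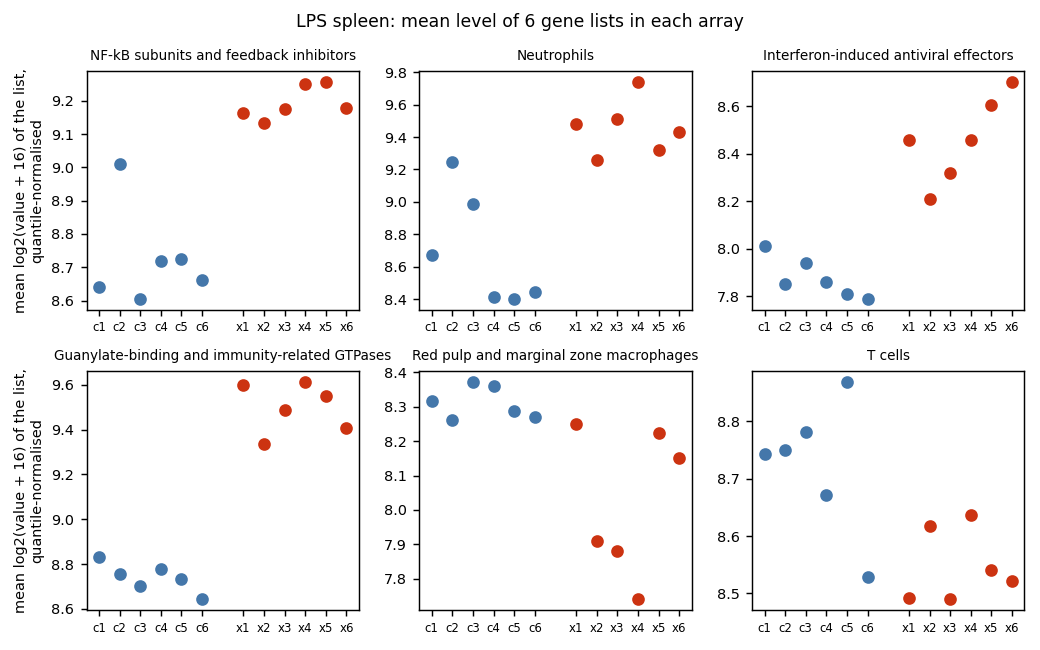
Mean level of the measured members of 6 gene lists on each array (quantile-normalised log2(value + 16), vertical axes that do not start at 0; c1 to c6 and x1 to x6 are replicates in no order). For the NF-kB and neutrophil lists replicate 2 of c (9.01 and 9.24) lies near the lowest x array (9.13 and 9.26), whereas for interferon effectors it lies at 7.85, within the other c arrays.

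Among 25 measured IRF, STAT and SOCS regulators 4 were higher and none lower, with a list median of 0.10. Socs3, the feedback inhibitor of gp130 and STAT3 signaling, stood at 9.59, 10.05 and 11.03 (lowest, median and highest) in c and 11.24, 11.64 and 11.84 in x. Replicate 2 was again the highest c array, at 11.03. The difference was 1.49 ± 0.21 (SE, 2.82-fold, adjusted p = 0.0023), and its 3 probe sets gave 1.44 to 1.56. Stat3 was higher by 0.85 ± 0.10 (SE, adjusted p = 0.000961) on its brightest of 3 probe sets, which ranged from 0.10 to 0.85, Irf1 by 0.48 ± 0.09 (SE, adjusted p = 0.0172) and Irf8, a factor of monocytes and dendritic cells, by 0.37 ± 0.08 (SE, adjusted p = 0.0392), the last losing the call without replicates 2 and 6 (adjusted p = 0.0807). Irf7 (0.21 ± 0.09) and Socs1 (0.10 ± 0.05) did not pass.

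Acod1, the enzyme that makes itaconate in activated macrophages, had the second largest difference. It stood at 6.02, 6.36 and 8.89 (lowest, median and highest) in c and 10.13, 10.20 and 10.89 in x, a difference of 3.58 ± 0.42 (SE, 11.9-fold, adjusted p = 0.000961), or 3.99 without replicates 2 and 6. It was the only one of 11 measured itaconate, arginine and polyamine enzymes to pass. Nos2, the inducible nitric oxide synthase, was at -0.02 ± 0.06, Arg1 at 0.13 ± 0.12 and Arg2 at 1.01 ± 0.27 (SE, adjusted p = 0.103), and Arg2 passed without replicate 2 (adjusted p = 0.0224).

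Some monocyte and neutrophil markers were higher in x. Clec4e, which encodes the C-type lectin Mincle, stood at 7.26, 7.94 and 9.85 (lowest, median and highest) in c and 10.88, 11.20 and 11.65 in x, a difference of 3.05 ± 0.39 (SE, 8.3-fold, adjusted p = 0.00141). Of 16 measured monocyte markers 5 were higher, among them Clec4d at 1.23 ± 0.24 (SE, adjusted p = 0.0193) and Ms4a6d at 1.49 ± 0.23 (SE, adjusted p = 0.00484, with 2 of its 3 probe sets past the threshold), and 2 were lower, as given below. Of 17 measured neutrophil markers 6 were higher and none lower, with a list median of 0.69, and 9 passed without replicate 2. Lcn2, the siderophore-binding lipocalin, stood at 7.40, 8.16 and 9.71 (lowest, median and highest) in c and 10.14, 10.43 and 11.09 in x, a difference of 2.10 ± 0.36 (SE, adjusted p = 0.00871). Fpr2, a receptor of formylated peptides, was higher by 2.07 ± 0.27 (SE, adjusted p = 0.00176), the collagenase Mmp8 by 1.78 ± 0.31 (SE, adjusted p = 0.0103), Cd177 by 1.73 ± 0.26 (SE, adjusted p = 0.0046) and S100a9 by 0.82 ± 0.17 (SE, adjusted p = 0.0293). S100a8, its partner in calprotectin, was at 0.69 ± 0.19 (SE, adjusted p = 0.103) and passed without replicate 2 (adjusted p = 0.0068).

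The mean level of the 17 neutrophil markers ran from 8.40 to 9.24 in c and from 9.26 to 9.74 in x, so it moved with the same code as the chemokine, NF-kB, interferon, itaconate and acute phase genes, and its part in those results was not tested. In bulk tissue, more cells of a type and more RNA per cell cannot be told apart. Of 18 measured acute phase and antimicrobial genes 2 were higher, Lcn2 and the serum amyloid A gene Saa3, the latter at 6.84, 7.25 and 7.59 (lowest, median and highest) in c and 8.42, 9.09 and 9.18 in x and 1.66 ± 0.17 (SE, 3.16-fold, adjusted p = 0.00033), and 5 passed without replicate 2. Wfdc21 (1.82 ± 0.30) and Chil1 (1.75 ± 0.27), a chitinase-like protein, also passed, as did the transcription factor Tfec (1.76 ± 0.17). Tfec was dim in c, at 4.995 to 5.80, and lay at 6.72 to 7.66 in x.

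Metal and oxidant defence genes moved in both directions. Of 18 measured, 5 were higher and 2 lower. The mitochondrial superoxide dismutase Sod2 stood at 8.39, 8.70 and 8.80 (lowest, median and highest) in c and 9.63, 9.98 and 10.06 in x, a difference of 1.23 ± 0.09 (SE, adjusted p = 0.000119), with 3 probe sets from 0.18 to 1.35. The metallothioneins Mt1 and Mt2, which bind zinc and copper, were higher by 1.37 ± 0.17 (SE, adjusted p = 0.00105) and 0.71 ± 0.15 (SE, adjusted p = 0.0366). The second probe set of Mt1 was at -0.01, and Mt2 did not pass without replicates 2 and 6 (adjusted p = 0.0792). Txnrd1, a thioredoxin reductase, was at 1.01 ± 0.14 (SE, adjusted p = 0.00197), and 1 of its 3 probe sets passed.

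Slc40a1 had the largest fall of all genes that passed. It encodes ferroportin, the only known iron exporter of mammalian cells, and stood at 10.45, 10.73 and 11.11 (lowest, median and highest) in c and 8.55, 8.87 and 9.36 in x. Every x array was below every c array. The difference was -1.85 ± 0.16 (SE, 3.61-fold lower, adjusted p = 0.000161), -1.89 without replicates 2 and 6, and -0.96 on its second probe set. Fth1, the ferritin heavy chain that stores iron, was higher by 0.38 ± 0.06 (SE, adjusted p = 0.00778). The other 13 measured iron genes did not pass, among them the transferrin receptor Tfrc (-0.11 ± 0.09), the phagosomal transporter Slc11a1 (0.18 ± 0.21) and heme oxygenase Hmox1 (-0.16 ± 0.12).

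Of 19 measured markers of red pulp and marginal zone macrophages 2 were lower and 1 higher, and the list median was -0.19. The lower genes were Slc40a1 and Mertk, a receptor for apoptotic cells, which fell by 0.65 ± 0.09 (SE, adjusted p = 0.00202). Spic was higher by 0.66 ± 0.14 (SE, adjusted p = 0.0336), though its groups overlapped. No other of the 19 had a positive difference. The hemoglobin receptor Cd163 (-0.73 ± 0.24, adjusted p = 0.227), Vcam1 (-0.43 ± 0.15, adjusted p = 0.262) and the F4/80 gene Adgre1 (-0.12 ± 0.10) did not pass. The list mean ran from 8.26 to 8.37 in c and from 7.74 to 8.25 in x, and x replicates 2, 3 and 4 were the lowest.

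Other genes lower in x had varied roles. Kcnj10, a potassium channel, stood at 7.40, 8.11 and 8.28 (lowest, median and highest) in c and 5.85, 6.38 and 6.70 in x, a difference of -1.71 ± 0.18 (SE, adjusted p = 0.000417). Hpgd, which inactivates prostaglandins, fell by 1.36 ± 0.19 (SE, adjusted p = 0.00283; second probe set -0.42), and Rgs2, a brake on G protein signaling, by 1.26 ± 0.16 (SE, adjusted p = 0.00141). The transglutaminase subunit F13a1 (-1.06 ± 0.24, adjusted p = 0.0421) and fibronectin Fn1 (-0.72 ± 0.15, adjusted p = 0.0325) are the pair of monocyte markers that fell, and the second probe set of Fn1, at -0.03, did not pass. The beta-glucan receptor Clec7a (-0.91 ± 0.12), lipoprotein lipase Lpl (-0.85 ± 0.16, second probe set -0.17), Fgl2 (-0.84 ± 0.13), S1pr5 (-0.69 ± 0.12), the sodium-potassium-chloride transporter Slc12a2 (-0.64 ± 0.13, 1 of 3 probe sets called), the phosphatidate phosphatase Lpin1 (-0.64 ± 0.09), Myadm (-0.64 ± 0.10) and the sterol hydroxylase Cyp27a1 (-0.62 ± 0.12) complete the 15 largest. In Cyp27a1 alone of these 15 the groups overlapped.

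Of 27 measured genes of apoptosis and p53 targets 8 rose and none fell, with a list median of 0.16. Casp4, which senses intracellular LPS, stood at 7.69, 8.54 and 8.95 (lowest, median and highest) in c and 9.65, 9.79 and 9.88 in x, a difference of 1.35 ± 0.18 (SE, adjusted p = 0.00195). The pro-apoptotic Bcl2l11, which encodes BIM, was higher by 0.81 ± 0.06 (SE, adjusted p = 0.000123; 5 probe sets from 0.07 to 0.86), and the cell cycle inhibitor Cdkn1a by 0.73 ± 0.08 (SE, adjusted p = 0.000412), with its second probe set at 0.11. Fas, a death receptor (0.67), and the inhibitors Cflar (0.61) and Birc3 (0.58) also passed. Gadd45b rose by 1.33 ± 0.28 (SE, adjusted p = 0.029), with replicate 2 of c at 10.13 inside the x range of 9.64 to 10.54.

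Single lymphocyte markers passed, where over all genes 1.88% were higher and 0.815% lower. Of 14 measured B cell markers 1 was lower (Fcer2a, which encodes CD23, -0.24 ± 0.06, SE, adjusted p = 0.0476), of 18 T cell markers 1 was lower (Cd28, -0.57 ± 0.13, SE, adjusted p = 0.0448), and of 15 genes of NK cells and cytotoxic effectors 1 was higher and 1 lower. Fcer2a lost the call with any of 10 single arrays left out and Cd28 with any of 11. The T cell list had a median of -0.16, with list means of 8.53 to 8.87 in c and 8.49 to 8.64 in x. The granule protease gene Gzmb stood at 7.80, 8.27 and 8.49 (lowest, median and highest) in c and 9.33, 9.65 and 9.83 in x, a difference of 1.39 ± 0.11 (SE, 2.62-fold, adjusted p = 0.000161), and the NK receptor chain Klrd1 fell by 0.47 ± 0.07 (SE, adjusted p = 0.00283). Perforin Prf1 was at 0.71 ± 0.19 (SE, adjusted p = 0.0957). Of 16 dendritic cell markers 2 were higher, the maturation marker Cd83 by 1.11 ± 0.13 (SE, adjusted p = 0.000843) and Cd40 by 0.68 ± 0.06 (SE, adjusted p = 0.000244), with its second probe set at 0.13.

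The 12 lists below, with 209 measured members, were grouped because limma called 0 of their members at an adjusted p of 0.05. That 0 was fixed by the grouping, so it cannot be set against the 334 of all 12393 genes (2.70%). At an unadjusted p of 0.05, 17 of the 209 genes passed. The count over the whole array, 2193 of 22626, is of probe sets and not of genes. The 12 lists were MHC class I processing (15 measured, list median 0.04), MHC class II (10, -0.01), complement (16, -0.03), glycolysis (18, -0.01), oxidative phosphorylation (28, -0.04), ribosomal proteins (20, -0.02), cholesterol synthesis (18, -0.0028), erythroid cells (20, 0.03), platelets (14, -0.06), stroma and endothelium (27, -0.03), pancreas (12, 0.03) and adipose tissue and muscle (11, -0.02). The immunoproteasome genes Psmb8 (-0.01 ± 0.11) and Psmb9 (0.02 ± 0.07) and the peptide transporter Tap1 (0.23 ± 0.07) are induced by interferon in many cells. The class II gene H2-Aa was at -0.01 ± 0.04 and its activator Ciita at -0.13 ± 0.09.

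**Figure D4:**
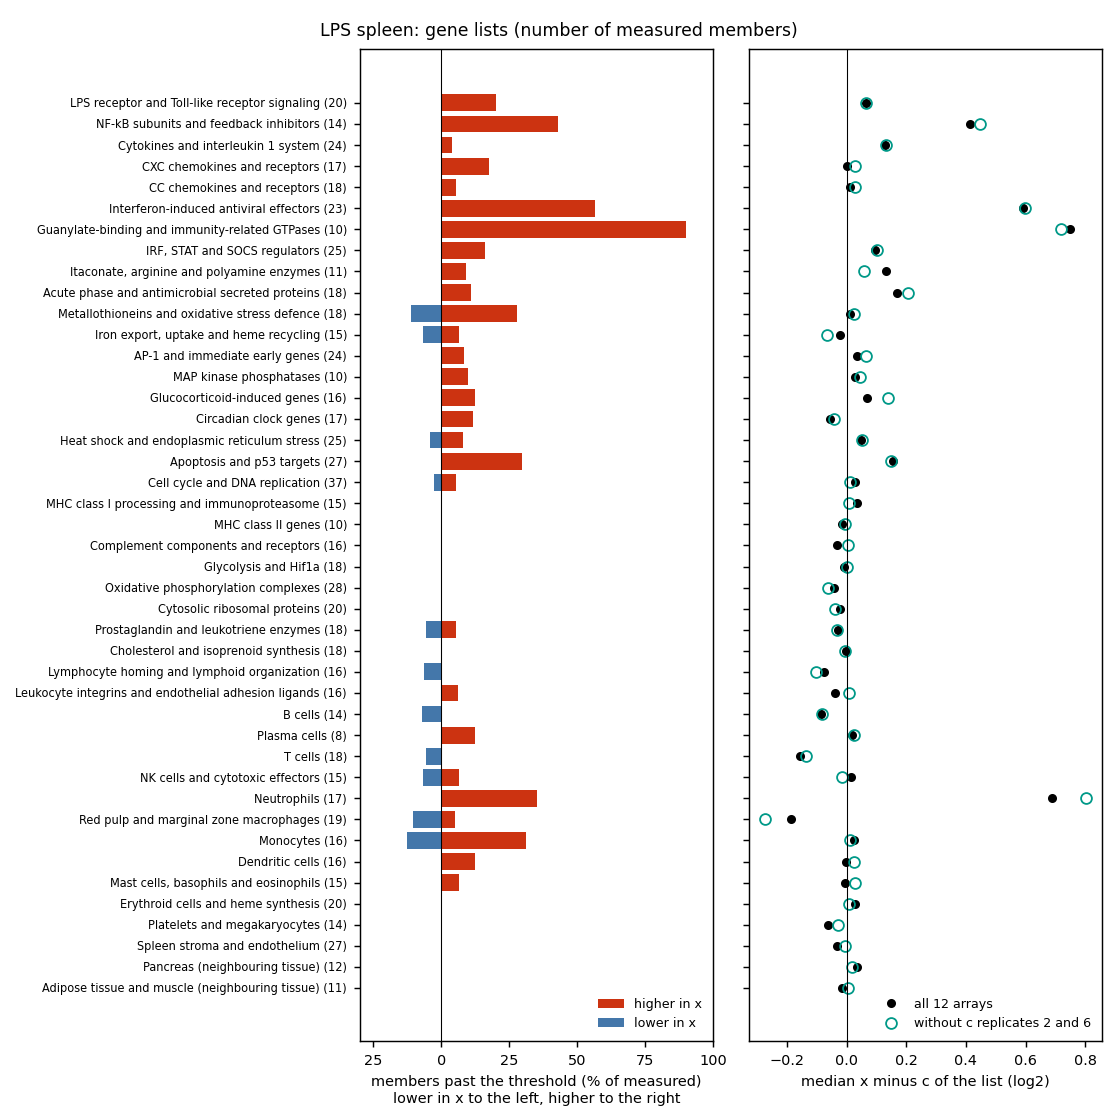
For 43 gene lists, the share of measured members past an adjusted p of 0.05 (left, percent; red higher and blue lower in x) and the median x minus c (right, log2) with all 12 arrays (filled) and without c replicates 2 and 6 (open). The GTPases (9 of 10) and interferon effectors (13 of 23) have the longest bars, and the neutrophil median moves from 0.69 to 0.80.

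The title codes x and c also occur on spleen arrays of a burn set (6 x and 5 c arrays) and of a trauma-hemorrhage set (5 x and 6 c arrays), which share no array with the LPS set. Whether the codes stand for the same thing in each set is not stated in the labels. In a fit of all 34 spleen arrays, 1439 of 22626 probe sets had an x minus c difference that was not the same in LPS as in burn (6.36%), and 2008 one that was not the same as in trauma-hemorrhage (8.87%). The deposited values have their own lowest value in each set (25.9, 9.68 and 11.1 for LPS, burn and trauma-hemorrhage), and how each set was scaled is not stated, so differences of dim genes may not be comparable across sets.

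The interferon list median in LPS lay between those of the other sets. Of the 23 antiviral effectors, 11 had a larger x minus c in LPS than in burn and none a smaller one, against 3.29% and 3.77% of all genes. Of the same 23, 21 had a smaller one than in trauma-hemorrhage, against 3.86% of all genes. The list median was -0.10 in burn, 0.59 in LPS and 2.73 in trauma-hemorrhage. All 10 GTPases were smaller than in trauma-hemorrhage and 6 larger than in burn. Cxcl10 had x minus c values of -0.07 in burn, 2.92 in LPS and 4.18 in trauma-hemorrhage, with a tested difference of 2.98 ± 0.28 (SE, adjusted p = 1.27e-08) from burn and -1.27 ± 0.28 (SE, adjusted p = 0.0022) from trauma-hemorrhage. Ccl3 was at 2.92 in trauma-hemorrhage and 0.21 in LPS, and that difference passed as well (-2.71 ± 0.22, SE, adjusted p = 3.03e-10).

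**Figure D5:**
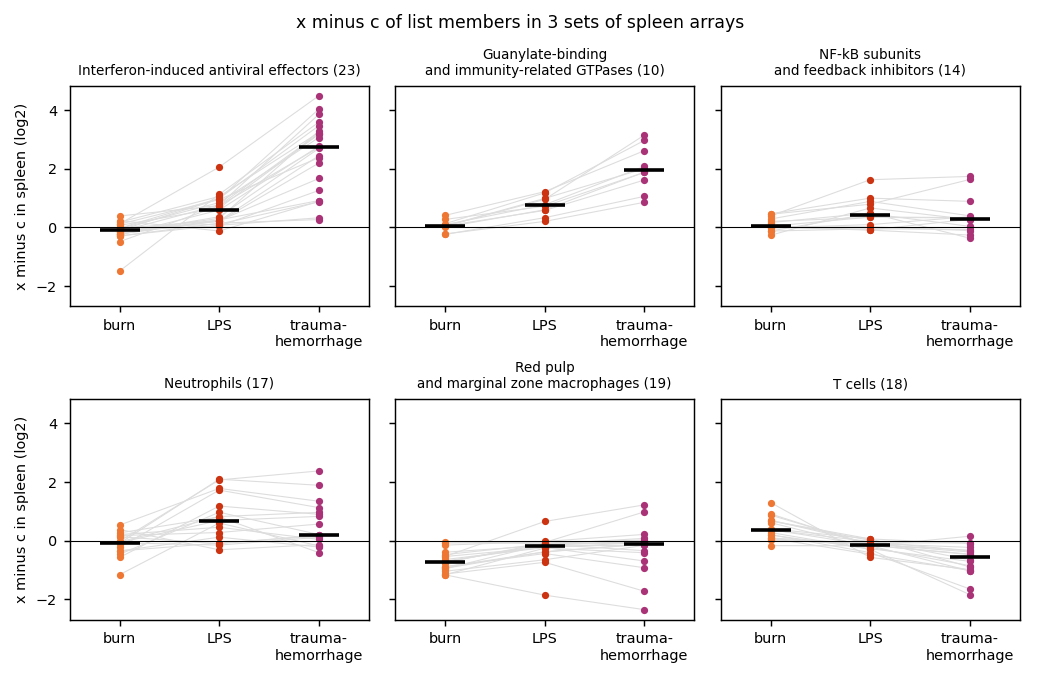
x minus c (log2) of the measured members of 6 gene lists on burn, LPS and trauma-hemorrhage spleen arrays; each point is a gene, thin lines join the same gene and black bars are list medians. The interferon list has medians of -0.10, 0.59 and 2.73, and the T cell list 0.38, -0.16 and -0.56.

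Of 16 measured glucocorticoid-induced genes 7 had a smaller x minus c in LPS than in burn and none a larger one, and the list medians were 0.07 in LPS and 0.73 in burn. Per1, a clock gene induced by glucocorticoids, was at -0.01 in LPS and 2.09 in burn (difference -2.09 ± 0.16, SE, adjusted p = 2.63e-10), and Fkbp5, a chaperone of the glucocorticoid receptor, at -0.03 and 2.01 (difference -2.04 ± 0.28, SE, adjusted p = 9.09e-06). T cell markers were smaller in LPS than in burn for 10 of 18 and larger than in trauma-hemorrhage for 6, where 6.34% of all genes were. Of 20 erythroid genes 7 were larger in LPS than in burn, among them Alas2, the first enzyme of heme synthesis in red cell precursors, at 0.92 and -3.02. Its 12 LPS values were spread widely, 6.49 to 8.94 in c and 7.58 to 9.82 in x.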

How the data were processed

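RNA from spleen was hybridised to 1-colour arrays, and the authors deposited 1 linear intensity per probe set; their background correction and scaling are not given in the sources used here. Array medians ran from 123 to 137, no arrays were identical, and the number of arrays limits the precision. From the deposited intensities, log2(value + 16) was quantile-normalised over the 34 spleen arrays. The 22626 probe sets that are not controls entered limma 3.58.1 under R 4.3.3 (lmFit, then eBayes with trend, two-sided), with Benjamini-Hochberg adjustment over all of them; the script was tested on simulated data. Of all probe sets 20380 have 1 gene symbol, 691 several and 1555 none, and a gene is its probe set with the highest mean. Differences between sets came from a fit of all 34 arrays. Exact permutation tests were run in scipy 1.17.1.

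Described genes are the 15 largest differences each way, up to 4 per list that passed, the 6 largest each way between sets, and a list of receptors, ligands and subunits chosen after their values were seen. The members and lists were chosen with earlier results of these data known. Alternatives were the pseudocount, scaling, filter, fit, title-number run, actin covariate and each array left out.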

Additional observations from a re-analysis of the deposited data

Results flagged for a closer look

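For each of 264 groups of 6 values (1 gene or list mean in 1 code), the gap of an extreme array to its neighbour was set against the range of the group. In 33 groups (12.5%) it exceeded the 95% critical value of Dixon's test, which about 1 in 20 independent groups pass by chance. These groups share arrays, and list means hold some of the same genes, so the 33 cannot be set against that rate. Of the 33, 15 were c replicate 2. On that array the log2 level was apart from the other c arrays for Cxcl2 (9.59), Acod1 (8.89), Ccrl2 (8.02), Cd14 (9.65), Ier3 (8.46), Kcnj10 (7.40), Bcl3 (8.91), Tnip1 (9.93), Socs3 (11.03), Gadd45b (10.13) and Cd83 (10.50), and so were its list means for NF-kB genes (9.01), CXC chemokines (7.55), MAP kinase phosphatases (7.84) and apoptosis genes (8.36). Of these, Kcnj10 was low on the array and the rest were high.

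Elsewhere among the c arrays, replicate 6 was apart in Myc (7.02) and in the list means of MHC class I (9.21) and MHC class II (10.11). Replicate 3 was apart in Irgm2 (7.46) and Cdkn1a (7.54), and replicate 1 in Hspa5 (11.33) and the heat shock list mean (8.94). Among the x arrays, replicate 4 was apart in Cxcl2 (10.77), Acod1 (10.89) and the complement list mean (7.02), and replicate 2 in Iigp1 (8.39), Irgm2 (8.40) and Oas2 (7.82). Replicate 6 was apart in Myc (8.93) and in the means of the cell cycle (7.90), MHC class I (9.57) and oxidative phosphorylation (9.70) lists, and replicate 1 in the CXC chemokine mean (7.88).

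The x minus c difference was not the same in LPS as in burn spleen for several genes by the limma test of the difference itself. It was larger in LPS for Alas2 (3.94), Cxcl10 (2.98), Cxcl9 (2.88), Rsad2 (2.61), Gdpd2 (2.54) and Tfec (2.25), and smaller for Hspa1b (-2.63), Cutal (-2.57), Hspa1a (-2.30), Il1r2 (-2.16), Per1 (-2.09) and Fkbp5 (-2.04), all as log2 differences. Against trauma-hemorrhage spleen it was larger for Fcer2a (2.25), Emilin3 (2.10), Cabp5 (1.80), Slit1 (1.77), Vegfb (1.76) and Ceacam1 (1.67), and smaller for Ifit3 (-3.09), Mx1 (-3.06), Cxcl11 (-3.01), Oas2 (-2.98), Slfn4 (-2.83) and Ccl3 (-2.71). The heat shock genes Hspa1b and Hspa1a had an x minus c of 3.32 and 2.35 in burn and 0.68 and 0.05 in LPS. On the LPS arrays Tfec was dim in c (4.995 to 5.80) and Cutal in both codes (means 5.31 and 5.26). Their differences from burn may thus not be comparable.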

How the results depend on the processing

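The 503 probe sets ranged from 356 to 534 when 1 array was left out, and the 97 list members from 76 to 108. The counts left their 1.5-fold range in few settings: 36 probe sets and 5 list members in the first run of title numbers alone, 155 and 51 in the last run alone, and 89 probe sets with a 2-fold minimum, settings that hold fewer arrays or a stricter rule. Median centring gave 412 higher and 95 lower. The LPS against burn count of 1439 ranged from 1214 to 1828 with 1 array out and was 2227 with array weights (the cause was not tested), and the LPS against trauma-hemorrhage count of 2008 ranged from 1756 to 2073. Without c replicates 2 and 6, a setting chosen after seeing the data, these counts were 492, 98, 1775 and 1645. Of 89 described genes that passed, which were chosen on these arrays, 1 passed in every setting and all kept their sign; of 58 that did not pass, 12 passed in at least 1 setting. No paired analysis was possible because the labels give no replicate numbers. Values near the lowest deposited value (4.36% to 5.72% of probe sets on each array) carry little information on differences.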

Other observations

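Several lists not described above held a few genes that passed. Over all genes 1.88% were higher and 0.815% lower, so counts this small say little about a list. Of 24 AP-1 and immediate early genes 2 were higher, Ier3 (1.79 ± 0.30, SE, adjusted p = 0.00831) and Myc (0.89 ± 0.15, SE, adjusted p = 0.00939). Fos was at 0.00 and Jun at 0.21 by their brightest probe sets, and neither passed. The second probe set of Jun, at 1.57, did pass. Of 10 MAP kinase phosphatases 1 was higher, Dusp16 (1.11 ± 0.10, SE, adjusted p = 0.000194). Of 17 clock genes 2 were higher, Bhlhe40 and Nfil3, with differences of 0.56 and 0.35, and of 16 glucocorticoid-induced genes 2 were higher, Cdkn1a and Mt2.

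The counts that follow stand beside the same 1.88% higher and 0.815% lower over all genes. Of 25 heat shock and endoplasmic reticulum stress genes 2 were higher and 1 lower. Hspa5, which encodes the chaperone BiP, rose by 0.41 ± 0.05 (SE, adjusted p = 0.000961). Of 37 cell cycle genes 2 were higher, Mcm4 (0.40) and Ccnd2 (0.37), neither of which passed without c replicates 2 and 6 (adjusted p = 0.109 and 0.0536), and 1 lower, the cyclin D1 gene Ccnd1 (-0.60 ± 0.08, SE, adjusted p = 0.00131). Of 18 prostaglandin and leukotriene genes 1 was lower, Hpgd, and 1 higher, the prostaglandin E2 receptor Ptger4 (0.70 ± 0.07, SE, adjusted p = 0.00044). Of 16 adhesion genes 1 was higher, Icam1 (0.96 ± 0.11, SE, adjusted p = 0.000786), and of 16 lymphocyte homing genes 1 was lower, S1pr4 (-0.43). Of 8 plasma cell genes 1 was higher, Prdm1 (0.74 ± 0.10, SE, adjusted p = 0.00206), and of 15 mast cell, basophil and eosinophil genes 1 was higher, the histidine decarboxylase gene Hdc (1.67 ± 0.29, SE, adjusted p = 0.0108).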
